A study of Homo sapiens with 12 samples.

Results

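The endoplasmic reticulum (ER) chaperones and ER stress regulators comprised 10 genes: HSPA5, HSP90B1, CALR, CANX, PDIA4, PDIA6, XBP1, ATF4, ATF6 and DDIT3. They were taken by name from the GENCODE annotation of hg38, out of 20033 protein-coding genes, with earlier results of these data known. The data came from Huh7, a line of human hepatocellular carcinoma cells, labelled wild type (WT) and with the treatment given as none. The study asked how the transcription factor HSF1 shapes enhancers and MYCN expression in liver cancer cells. CUT&Tag (cleavage under targets and tagmentation) directs a transposase to an antibody on chromatin, so that DNA near the bound protein is tagged and sequenced. One library was made with an antibody against HSF1, the master regulator of the cytosolic heat shock response. Another was made with an antibody against H3K27ac, the acetylation of histone H3 lysine 27 that marks active promoters and enhancers. Each group therefore held 1 library with no replicates, no test across replicates was possible, and every interval given covers counting error only. The RNA-seq, the ChIP-seq after siNC or siHSF1 transfection, and the CUT&Tag reaction that lacked a primary antibody were not used here.

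Secreted and membrane proteins fold in the ER with the help of resident chaperones and disulfide isomerases. When unfolded proteins accumulate, the sensors IRE1, PERK and ATF6 start the unfolded protein response. IRE1 splices the XBP1 mRNA, PERK signalling favours translation of ATF4, and cleaved ATF6 enters the nucleus. Cleaved ATF6 acts with the CCAAT-binding factor NF-Y at the ER stress element, in which CCAAT and CCACG are separated by 9 bases. HSF1 itself recognises the heat shock element, an inverted repeat of GAA, in the genes of the cytosolic response. Hepatocytes secrete large amounts of protein and hold abundant ER chaperones.

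Complete ER stress elements were found within 250 bp of the canonical start, the start of the transcript that Ensembl takes as representative, in 6 of the 10 genes. These 6 promoters held 7 elements, which are shown because they link the genes and because most of them lie in regions with HSF1 signal. Capitals mark CCAAT and CCACG. Each run is read 5′ to 3′ on the strand named, from hg38, with 5 bases on either side.
HSPA5, chr9:125241386-125241414, minus strand: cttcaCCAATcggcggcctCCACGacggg
HSP90B1, chr12:103930211-103930239, plus strand: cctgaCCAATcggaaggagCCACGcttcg
HSP90B1, chr12:103930316-103930344, minus strand: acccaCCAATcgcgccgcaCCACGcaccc
CALR, chr19:12938379-12938407, minus strand: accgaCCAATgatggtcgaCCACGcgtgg
CANX, chr5:179698773-179698801, plus strand: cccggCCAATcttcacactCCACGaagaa
PDIA6, chr2:10812848-10812876, minus strand: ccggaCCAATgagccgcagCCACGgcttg
XBP1, chr22:28800598-28800626, minus strand: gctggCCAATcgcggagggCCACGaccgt

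HSF1 peaks lay at the promoters of 6 of the 10 genes, and these were mainly the chaperones. A promoter peak is a peak whose summit, its highest point, lies within 1 kb of any annotated transcript start. Of the 6 chaperones and disulfide isomerases, 5 had one: HSPA5, HSP90B1, CALR, CANX and PDIA4. Of the 4 transcription factors, 1 had one, XBP1. Across all protein-coding genes, 25.4% had an HSF1 promoter peak (5098 of 20033), against 60% of the 10 genes (95% Wilson interval 31.3% to 83.2%). Since the genes were chosen with earlier results known, the share is a description beside the background and not a test of it.

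The HSF1 list held 7147 peaks on chromosomes 1 to 22, X and Y, made from 2712212 tags left after duplicate removal. The median peak had a pileup of 13, where the pileup counts the extended tags that cover the summit, and a fold enrichment of 6.85 over the local background. The H3K27ac list held 1299 peaks with a median pileup of 8, made from 896393 tags left after duplicate removal. These were 5.70% of the H3K27ac tags before that step, while the HSF1 library kept 75.2% of its tags. The pileups therefore rest on few tags, and a promoter without a peak may carry signal that was not detectable at this depth.

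HSPA5 encodes BiP, the Hsp70 chaperone of the ER and the usual marker gene of the unfolded protein response. Its HSF1 peak spanned 471 bp at chr9:125241245-125241715 and had a pileup of 21 (95% Poisson interval 13.0 to 32.1) and a fold enrichment of 10.6. This enrichment exceeded that of 93.9% of the HSF1 peaks. The summit lay 217 bp upstream of the nearest HSPA5 start and 256 bp upstream of the canonical one.

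PDIA4 encodes a protein disulfide isomerase that also takes part in glycoprotein folding. Its peak, at chr7:149028504-149029027, had the highest fold enrichment of the 6, 11.7, above that of 97.1% of HSF1 peaks. The pileup was 28 (18.6 to 40.5). The summit lay 78 bp upstream of the nearest start and 235 bp upstream of the canonical start.

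CANX encodes calnexin, the membrane-bound lectin chaperone of glycoprotein folding. Its peak was the widest and the tallest, with 822 bp at chr5:179698308-179699129 and a pileup of 37 (26.1 to 51.0). Its fold enrichment of 10.0 was lower than that of PDIA4, with a local background of 2.8 tags that was the highest of the 6. The summit lay 209 bp upstream of the nearest of 32 CANX starts and 20069 bp from the outermost one.

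HSP90B1 encodes GRP94, the Hsp90 chaperone of the ER, and CALR encodes calreticulin, the soluble counterpart of calnexin. The HSP90B1 peak, at chr12:103929998-103930409, had a pileup of 15 (8.40 to 24.7) and a fold enrichment of 7.08. The CALR peak, at chr19:12938370-12938602, had a pileup of 13 (6.92 to 22.2) and a fold enrichment of 7.0. Both stood near the middle of the list, above 55.7% and 53.8% of the peaks by fold enrichment. Their summits were close to a start, 14 bp upstream for HSP90B1 and 36 bp upstream for CALR.

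XBP1 encodes the transcription factor activated by IRE1. Its peak was the shortest, 228 bp at chr22:28800561-28800788, with a pileup of 15 (8.40 to 24.7). Its fold enrichment of 6.67 was the lowest of the 6, above that of 45.1% of HSF1 peaks. The summit lay 43 bp upstream of the nearest XBP1 start.

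In order of pileup the peaks ran CANX, PDIA4, HSPA5, then HSP90B1 and XBP1 with equal values, then CALR. The intervals of all neighbours in this order overlapped. Of the 15 pairs, 3 had Poisson intervals that did not overlap, and all 3 set CANX against a peak farther down the order: its pileup was 2.47 times that of HSP90B1 and of XBP1, and 2.85 times that of CALR. The median fold enrichment of the 6 peaks was 8.54, and that of the promoter peaks of all coding genes was 7.29, taking the peak of highest enrichment for each gene. The median pileups were 18 and 14. In the plot of pileup and fold enrichment, HSPA5, CANX and PDIA4 stand in the upper tail of all HSF1 peaks, while HSP90B1, CALR and XBP1 stand in the bulk.

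**Figure D1:**
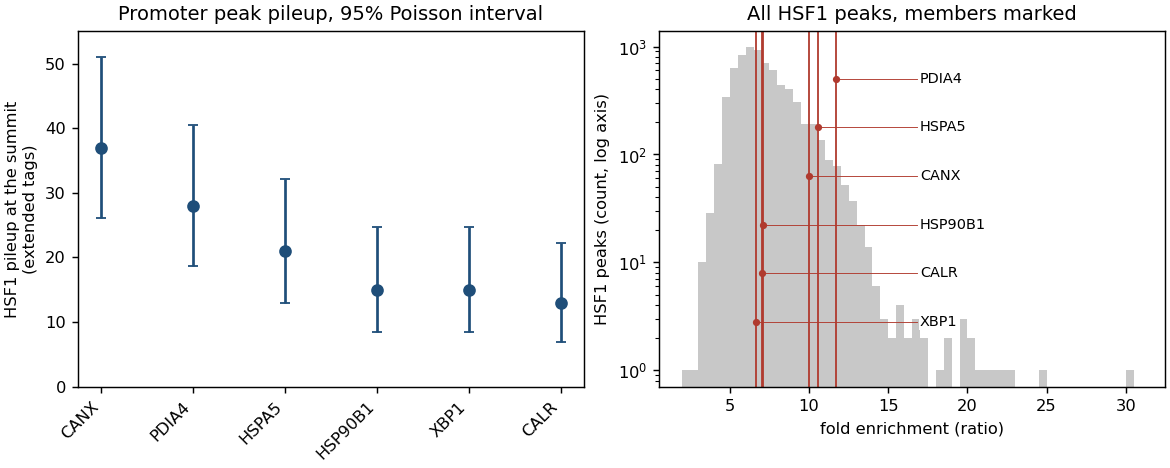
Left, the HSF1 pileup at the summit (extended tags) of the 6 promoter peaks with 95% Poisson intervals, where CANX reaches 37 and CALR 13. Right, a histogram of fold enrichment (a ratio) over all 7147 HSF1 peaks, with the count on a log axis and the 6 peaks marked between 6.67 (XBP1) and 11.7 (PDIA4).

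PDIA6, a disulfide isomerase that also attenuates the stress sensors, was the 1 chaperone without a promoter peak. The nearest HSF1 summit was 295 kb from its starts. ATF4, the effector of the PERK branch, had its nearest HSF1 summit 120 kb away. ATF6, the membrane-bound sensor and factor, had its nearest 154 kb away. For DDIT3, which encodes the pro-apoptotic factor CHOP, the distance was 69.2 kb. The 1 kb limit therefore separated the groups with a wide margin, because the farthest summit counted lay 217 bp from a start (HSPA5) and the nearest one not counted lay 69.2 kb away (DDIT3).

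H3K27ac peaks were scarce at these genes, as they were in the whole list. HSPA5 was the 1 gene of the 10 with an H3K27ac promoter peak, while 3.31% of protein-coding genes had one (664 of 20033). The HSPA5 peak covered 256 bp at chr9:125241278-125241533, with a pileup of 9 (95% Poisson interval 4.12 to 17.1) and a fold enrichment of 7.14. It lay entirely inside the HSF1 peak, but its summit was 220 bp from the HSF1 summit and 3 bp downstream of the nearest HSPA5 start. At the other genes the nearest H3K27ac summit was between 152 kb (DDIT3) and 2722 kb (PDIA6) away. Over all genes, 77.6% of the 664 with an H3K27ac promoter peak also had an HSF1 promoter peak, and 10.1% of the 5098 with an HSF1 promoter peak also had an H3K27ac one.

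All 6 HSF1 summits lay upstream of the nearest start of their gene, at a median distance of 60.5 bp. The median was 163.5 bp from the canonical start and 144.5 bp from the outermost start. Across the coding genes with a promoter peak, 74.8% of the summits lay upstream of the nearest start and the median distance to it was 94 bp. By annotation the summits of HSPA5, CALR, PDIA4 and XBP1 were outside the gene, just before its first exon. Those of HSP90B1 and CANX were in non-coding exon sequence of other transcripts of the same gene.

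Several of these promoters are shared with another transcript, so the HSF1 signal cannot be assigned to 1 of the pair. The HSPA5 summit lay 64 bp from the start of HSPA5-DT, a divergent long non-coding RNA. The XBP1 summit lay 43 bp from the start of the long non-coding RNA ENSG00000226471, the same distance as from XBP1 itself. The HSP90B1 summit lay 107 bp from the starts of both the pseudogene TTC41P and the microRNA gene MIR3652. Among genes without a peak, ATF6 has the divergent transcript ATF6-DT 93 bp from its canonical start, and DDIT3 has the coding genes ENSG00000285133 and MBD6 at 34 bp and 196 bp.

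CCAAT boxes were present at every one of the 10 promoters. Both strands were searched within 250 bp of the canonical start, where 43.5% of all coding genes held at least 1 box. The 10 promoters held 28 boxes, of which 24 lay upstream of the start. HSPA5 and HSP90B1 had 5 boxes each, CALR and PDIA4 had 4 each, PDIA6, XBP1, ATF4 and DDIT3 had 2 each, and CANX and ATF6 had 1 each. The boxes of ATF4, at 120 bp and 245 bp, and of ATF6, at 117 bp, were downstream of the start.

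Upstream runs of 5 of these genes are shown because they carry part of the boxes counted, with and without an HSF1 peak. Each is read 5′ to 3′ on the strand of the gene, from hg38, and stops before the most upstream start of the gene within the run's window, so PDIA6 and DDIT3 also have starts farther upstream. The PDIA4 run holds 2 of its 4 counted boxes, and the HSPA5 run lacks the counted box 34 bp downstream of the start. Capitals mark CCAAT, which reads ATTGG when the box is on the other strand, and the CCACG of a complete ER stress element. HSPA5, PDIA4 and XBP1 had an HSF1 peak, and PDIA6 and DDIT3 did not.
HSPA5, chr9:125241383-125241623, minus strand: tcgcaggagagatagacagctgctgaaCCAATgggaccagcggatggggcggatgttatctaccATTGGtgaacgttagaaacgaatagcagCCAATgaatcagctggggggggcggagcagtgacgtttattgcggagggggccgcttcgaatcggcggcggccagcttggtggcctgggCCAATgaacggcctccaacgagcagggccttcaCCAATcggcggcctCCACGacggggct
PDIA4, chr7:149028663-149028785, minus strand: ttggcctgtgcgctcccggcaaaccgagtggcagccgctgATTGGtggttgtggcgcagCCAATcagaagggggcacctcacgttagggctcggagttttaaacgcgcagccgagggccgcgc
XBP1, chr22:28800598-28800699, minus strand: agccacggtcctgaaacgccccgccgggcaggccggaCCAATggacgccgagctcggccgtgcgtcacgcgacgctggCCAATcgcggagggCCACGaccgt
PDIA6, chr2:10812840-10812925, minus strand: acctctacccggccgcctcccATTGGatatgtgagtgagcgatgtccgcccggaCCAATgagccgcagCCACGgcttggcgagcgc
DDIT3, chr12:57520518-57520644, minus strand: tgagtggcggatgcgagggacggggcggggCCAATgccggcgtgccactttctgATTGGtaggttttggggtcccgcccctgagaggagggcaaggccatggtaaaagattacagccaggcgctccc

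Within 250 bp of the summit, HSP90B1 held 6 CCAAT boxes, HSPA5 and PDIA4 held 5 each, CALR 4, XBP1 2 and CANX 1. The distance from the summit to the middle of the nearest box was 3 bp in PDIA4, 5 bp in HSPA5, 12 bp in HSP90B1, 20 bp in XBP1, 25 bp in CALR and 83 bp in CANX. In HSPA5 that box is the first one in the run printed above, just outside the 250 bp window of the counts. The distance to the nearest complete ER stress element was 12 bp in HSP90B1 and 28 bp in XBP1, but 90 bp in CANX, 149 bp in CALR and 199 bp in HSPA5. In CANX the only box is that of the element, so both distances measure the same site. PDIA4 had no complete element. The map of elements and summits shows this arrangement, with the summit of HSPA5 at the far upstream end and its element near the start.

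**Figure D2:**
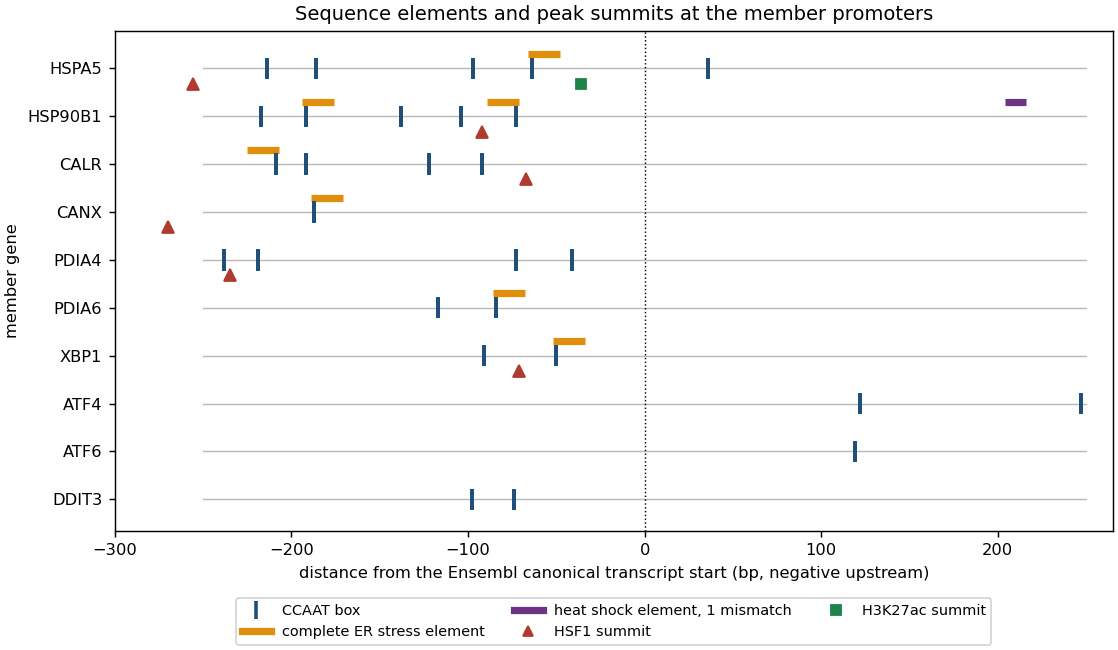
The 10 promoters drawn to scale by distance from the Ensembl canonical start (bp, negative upstream), with CCAAT boxes, complete ER stress elements, the heat shock element, and the HSF1 and H3K27ac summits. The 6 genes with an HSF1 summit have it upstream of the start, and the boxes of ATF4 and ATF6 are downstream.

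The distance between adjacent boxes, counted from start to start, varied from 17 bp to 146 bp over 18 intervals in the 8 genes with more than 1 box. The intervals were 28, 89, 33 and 100 bp in HSPA5, and 25, 54, 34 and 31 bp in HSP90B1. They were 17, 70 and 30 bp in CALR, and 19, 146 and 32 bp in PDIA4. PDIA6 had a single interval of 33 bp, XBP1 one of 41 bp, ATF4 one of 125 bp and DDIT3 one of 24 bp. A spacing of 30 to 34 bp, a range chosen after these values were seen, recurred in 6 intervals of 5 genes, all of them chaperones or isomerases. Of all coding starts 2.11% had such a pair, but the share was 12.6% among the starts with 2 or more boxes and 33.5% among the 361 with 4 or more.

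The complete ER stress element was rare in the genome and common in these genes. It was found at 23 of 20033 coding starts, or 0.115% (95% Wilson interval 0.0765% to 0.172%), and 6 of the 23 were HSPA5, HSP90B1, CALR, CANX, PDIA6 and XBP1. The element was first defined in promoters of ER chaperones, so this concentration is not independent of the choice of genes. Each element contains a CCAAT that is also counted as a box. HSP90B1 was the 1 coding gene with 2 complete elements. When 1 mismatch was allowed in CCACG, DDIT3 was added, with 2 elements, while the share of all coding starts became 1.56%.

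Of the 6 genes with a complete element, 5 had an HSF1 peak, and PDIA6 did not. Over all coding starts, 11 of the 23 with the element had an HSF1 promoter peak, or 47.8% (29.2% to 67.0%). The share among all coding genes was 25.4%. Every element contains a CCAAT box, and the share with a peak at the canonical start was 22.7% with 1 box. It was 56.0% with 4 or more boxes. The part of the box count in the 47.8% was not tested. Some neighbouring genes among the 11 share a peak, and the interval counts them as separate. The element was present at 0.216% (0.121% to 0.386%) of genes with an HSF1 peak and at 0.0803% (0.0460% to 0.140%) of genes without one. These intervals overlap. Of the 11, the genes studied here make up 5.

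The other stress elements of the pathway were not found in these windows. The second ER stress element, ATTGG and CCACG separated by 1 base, was in 0 of the 10 promoters and in 0.0699% of all coding starts. The unfolded protein response element TGACGTGG was in 0 of the 10 and in 1.10% of all. The composite site TGATGNAA, bound by ATF4 with C/EBP factors, was in 0 of the 10 and in 3.40% of all, and the cyclic AMP response element TGACGTCA was in 0 of the 10 and in 2.84%. For each the Wilson interval of 0 in 10 reaches 27.8%, above the background share.

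A heat shock element was found at 1 of the 10 promoters. It was searched as 3 alternating GAA units with 2 free bases between them and at most 1 mismatch in the 9 fixed bases. HSP90B1 held the 1 match, from 204 bp to 216 bp downstream of the canonical start and outside the HSF1 peak. With no mismatch allowed 0 of the 10 promoters held the element. The shares of all coding starts were 7.35% with 1 mismatch and 0.559% with none. The HSP90B1 match is printed beside a match of HSPA8, the constitutive cytosolic Hsp70, to show how they differ. Capitals mark the 9 fixed bases, and the HSP90B1 site has the substitution A2G, counted from 1 at the first base of the first unit with the pattern base given first.
HSP90B1, chr12:103930609-103930631, minus strand: ccccaGGAccTTCgaGAAgcggc
HSPA8, chr11:123062349-123062371, minus strand: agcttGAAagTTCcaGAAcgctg

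The 4 genes with 4 or more CCAAT boxes, HSPA5, HSP90B1, CALR and PDIA4, all had an HSF1 peak. Of the 6 genes with 1 or 2 boxes, 2 had one, CANX and XBP1. The same order was seen over all coding genes, where for this count the peak had to lie within 1 kb of the canonical start, as it did for 22.8% of genes. The share was 19.5% with no box, 22.7% with 1, 29.0% with 2, 38.4% with 3 and 56.0% (95% Wilson interval 50.8% to 61.0%) with 4 or more. Among the 13216 starts with a GC content of 60% or more, 29.5% had a peak, and the shares by box count were 23.8%, 32.6%, 44.8%, 56.5% and 73.2% (66.9% to 78.7%). Genes are not replicates, and neighbouring genes can share a peak.

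**Figure D3:**
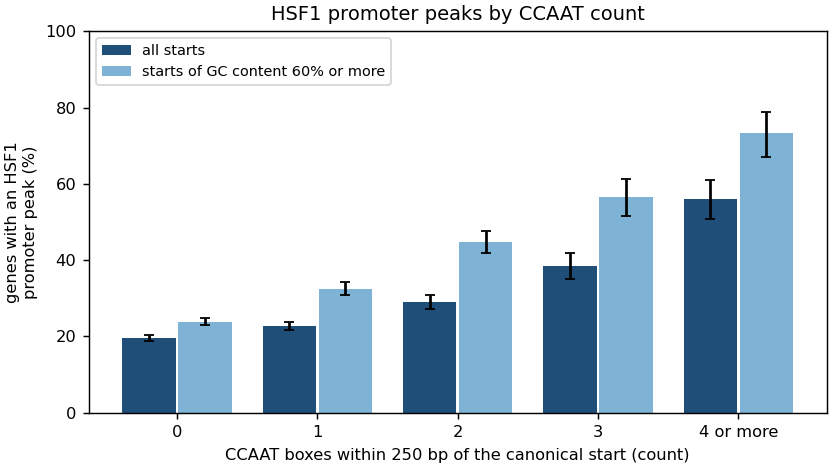
Share of protein-coding genes (%) with an HSF1 peak within 1 kb of the canonical start, by the number of CCAAT boxes within 250 bp of that start, for all starts and for starts with a GC content of 60% or more. Bars are shares and lines are 95% Wilson intervals, from 19.5% with no box to 56.0% with 4 or more over all starts.

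GC content and the number of annotated starts also differed among the 10 promoters. The GC content within 250 bp of the canonical start ran from 52.3% in ATF6 to 75.2% in PDIA6, with a median of 66.2% against 64.7% for all coding starts. The 3 factors without a peak had the 3 lowest values, 52.3% in ATF6, 60.1% in DDIT3 and 61.7% in ATF4, but PDIA6, without a peak, had the highest. The 10 genes had a median of 6.5 distinct starts, against 5 for all coding genes. Over all coding genes the share with an HSF1 promoter peak was 14.7% with 1 to 4 starts, 29.6% with 5 to 9 and 38.4% with 10 or more. The part of GC content and of start number in the count of 6 was not tested.

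A wider list of 52 ER genes gave a similar share of HSF1 promoter peaks, 33 genes or 63.5% (95% Wilson interval 49.9% to 75.2%). By role these were 12 of 20 folding and disulfide genes, 8 of 10 genes of ER-associated degradation and 5 of 8 genes of protein translocation. The rest were 8 of 14 in a mixed group of sensors, proteases, transcription factors and other genes of the stress response. The first and the last of these groups did not differ as the chaperones and factors among the 10 genes did. The transcription factors of the mixed group were not counted apart, so its share does not repeat that contrast. The median fold enrichment of the 33 peaks was 8.24, with a range of 5.15 to 11.1. The 5 highest were CREB3L2, an ER-anchored transcription factor, with 11.1, the glycoprotein folding sensor UGGT1 with 10.7, the BiP co-chaperone DNAJB9 with 10.2, the protease MBTPS1 that cleaves ATF6 with 10.1, and the translocon subunit SEC61B with 10.0. ERP44, which retains folding enzymes in the ER, tied with SEC61B at 10.0 and had the higher pileup, 27 against 23. These values lie between those of CANX and PDIA4.

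Complete ER stress elements were found in 2 of the 52 genes, 3.85% (1.06% to 12.98%). The share was 6 among the 10 (31.3% to 83.2%) and 0.115% of all coding starts. With 1 mismatch allowed in CCACG, it was 8 of the 52 (15.4%) and 7 of the 10, beside 1.56% of all coding starts. The element was first defined in promoters of ER chaperones and both lists were chosen by hand. The shares of the 2 lists are therefore a description and not a test. The 2 genes of the 52 with a complete element were CRELD2 and ERO1B. The ER stress-responsive CRELD2 had an HSF1 peak of fold enrichment 8.33, and the ER oxidase gene ERO1B had no peak. The second ER stress element was in 3 of the 52 and the composite ATF4 site in 6. CCAAT boxes were in 38 of the 52. Of the 19 genes with 2 or more boxes 14 had an HSF1 peak, against 19 of the 33 with 1 or none. Among the 5 of highest fold enrichment, CREB3L2 had 4 boxes, SEC61B 2, DNAJB9 1, and UGGT1 and MBTPS1 0. A heat shock element was in 1 of the 52.

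H3K27ac promoter peaks were found at 5 of the 52 genes, 9.62% (4.18% to 20.6%), beside 3.31% of all coding genes. They were DNAJB9 with a pileup of 12, SIL1, the nucleotide exchange factor of BiP, with 8, the ubiquitin ligase SYVN1 with 8, SEC61B with 15, and the translocon-associated SSR4 with 5. Of the 5, 4 also had an HSF1 promoter peak, and SSR4 did not.

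The cytosolic and mitochondrial heat shock genes, the classical targets of HSF1, had a similar share of HSF1 promoter peaks and a different set of elements. Of 12 such genes, 7 had a promoter peak, or 58.3% (31.95% to 80.7%), and the 3 intervals of the gene lists overlap. The peak with the highest pileup, 52, with a fold enrichment of 12.3, was shared by the divergent pair HSPE1 and HSPD1, the mitochondrial chaperonins. HSPA8 had a pileup of 37, equal to CANX, and a fold enrichment of 11.7. HSPH1 had a pileup of 16, HSPA4 12 and HSP90AA1 11. DNAJB1 had a pileup of 18 at another of its starts, with the summit 10933 bp from the canonical start. A second DNAJB1 peak, with a pileup of 10 and a fold enrichment of 5.24, had its summit 227 bp from the canonical start. The 5 heat shock genes without a promoter peak were HSP90AB1, HSPB1, BAG3, HSPA1A and HSPA1B, and all but HSP90AB1 held a heat shock element with at most 1 mismatch. HSPA1A and HSPA1B are near-identical copies, so their mapping is uncertain.

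A heat shock element with at most 1 mismatch was found in 9 of the 12 heat shock genes, 75% (46.8% to 91.1%), and in 1 of the 10 ER genes, 10.0% (1.79% to 40.4%). The intervals do not overlap, though both lists were drawn up from known biology that includes these elements. The complete ER stress element was in 0 of the 12 and a CCAAT box in 6 of the 12. An exact heat shock element was in 4 of the 12, and 3 of these, HSPA8, HSPH1 and HSPD1, also had an HSF1 peak within 1 kb of the canonical start. The fourth, HSP90AA1, had its peak at another start, with the summit 52718 bp from the canonical start. Over all coding starts, 112 held an exact element, and 21.4% of them (14.8% to 29.9%) had an HSF1 peak at the canonical start, beside 22.8% of all genes. The plot of shares by list shows bars of 58.3% to 63.5% for HSF1 peaks in the 3 lists. The complete ER stress element stands high in the 10 ER genes and the heat shock element in the heat shock genes, while the wider ER list has 3.85% and 1.92%.

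**Figure D4:**
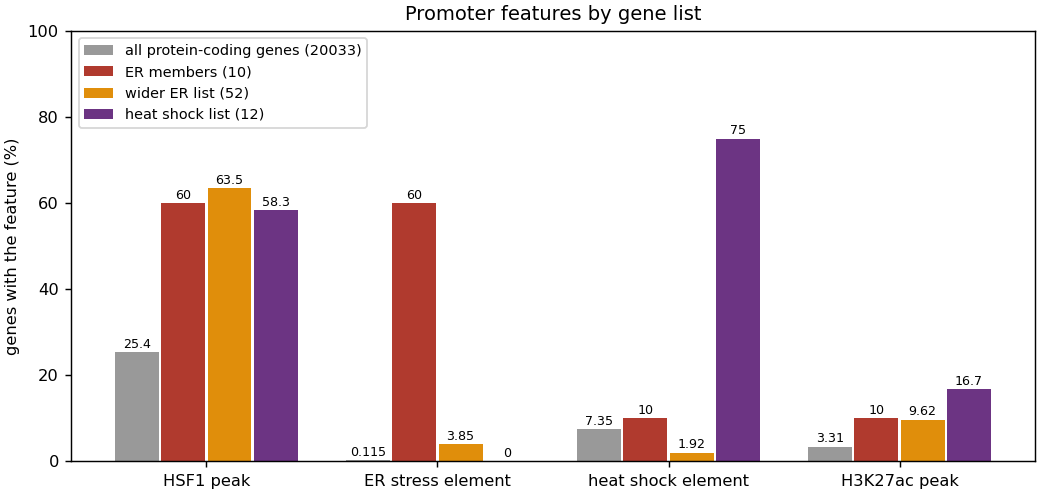
Share of genes (%) with each promoter feature in the 10 ER genes, the wider list of 52 ER genes, the 12 heat shock genes and all 20033 coding genes. HSF1 promoter peaks reach 60%, 63.5% and 58.3% in the 3 lists beside 25.4% of all coding genes, while the complete ER stress element reaches 60% in the 10 genes and 0% in the heat shock genes.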

How the data were processed

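HSF1 and H3K27ac CUT&Tag were each done in 1 library of untreated Huh7 cells. The submitters' notes name Bowtie, Picard and MACS2 with hg38. Per the file headers, the authors called the peaks of each library with MACS 2.1.4 without a control at a p-value cutoff of 1e-05, with tags shifted by -100 bp and extended to 200 bp. As deposited, the pileup is a signal that counts extended tags at the summit without scaling for library size. Fold enrichment, as deposited, is a ratio with 1 added to both the pileup and the local background. The authors' caller wrote the −log10 p-value and also a −log10 q-value, although the header says q-values were not calculated, so q serves only as a filter. No p-value of the caller is used as a test between genes. The 2 deposited ChIP-seq lists name hg19 in their headers and were not used, since the annotation and sequence are hg38. Depths were 2712212 and 896393 tags after duplicate removal.

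Transcript starts came from GENCODE release 44. Peaks were assigned by summit, and a gene with several promoter peaks is described by the one of highest fold enrichment. Motifs were searched on both strands of hg38. Shares have 95% Wilson intervals and pileups exact 95% Poisson intervals, and tags are not independent molecules. The text names all 10 members, the wider-list genes with an H3K27ac peak, a complete element or one of the 5 highest fold enrichments, and heat shock genes with a peak. Genes outside the lists with 2 or more complete elements were to be named, and there were 0. The heat shock genes without a peak, ERP44, the range of 30 to 34 bp and the genes outside the 10 with such a pair were added after values were seen. The members and lists were chosen with earlier results of these data known. The scripts were tested on simulated data: 305 of 305 planted promoter peaks among 2000 genes and 200 of 200 planted sites of each of 7 motifs were recovered. The scripts ran under Python 3.11.15 with pysam 0.24.0 for sequence, scipy 1.17.1 for intervals, pandas 2.3.3 and numpy 2.4.6 for tables, and matplotlib 3.10.9 for figures.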

Additional observations from a re-analysis of the deposited data

How the results depend on the processing

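Shares were held to their 95% counting intervals, counts to 1.5 times, and medians to the quartiles of the 6 peaks. Of 52 alternatives to 11 results, 38 stayed within these limits and 14 did not. Only the difference in complete ER stress elements has a direction that could reverse, and it kept its sign in each of its alternatives. The median summit distance, 60.5 bp, stayed within the quartiles but was 163.5 bp from canonical and 144.5 bp from outermost starts. The count of 6 genes with an HSF1 peak was the same with summits within 500 bp or 2 kb, canonical starts, a −log10 q of at least 5, or any part of the peak, and was 5 with outermost starts, where CANX was lost. The share of coding genes with an HSF1 peak moved from 25.4% to 24.3% (500 bp), 26.3% (2 kb), 22.8% (canonical starts), 21.5% (outermost starts) and 22.03% (−log10 q of at least 5). The H3K27ac share moved from 3.31% to 2.89%, 2.73% and 1.28% under the last 3 of these. Genes with a CCAAT box numbered 6 around summits, since only 6 genes have a summit. Within 100 bp of the canonical start, 7 genes held a CCAAT box and 4 a complete ER stress element. The limit of 1.5 times still allowed both counts. Genes with a heat shock element numbered 0 within 100 bp of the start, 0 around summits, 0 with no mismatch and 6 with 2 mismatches. The difference in complete ER stress elements between genes with and without an HSF1 peak, 0.135 percentage points, was 0.0512 within 100 bp, 0.2005 within 500 bp, 0.956 with 1 mismatch in CCACG, 0.145 at starts of GC content 60% or more, and 0.163 with peaks at canonical starts, an alternative chosen after seeing the data. No paired analysis was possible because each condition has 1 library. With pileups of 13 to 37 tags, depth limits the comparison of peaks, and a missing H3K27ac peak is not evidence of absence.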

Other observations

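The complete ER stress element marked 15 coding starts outside the lists, and 5 of these had an HSF1 promoter peak. They were named after their values were seen. SERP1, which stabilises membrane proteins at the translocon, and EIF2A, a translation initiation factor, share 1 peak with a pileup of 14 and a fold enrichment of 8.72. ALG12, a mannosyltransferase of N-glycan assembly in the ER, shares its peak with CRELD2, with a pileup of 15 and a fold enrichment of 8.33. The zinc finger gene ZNF17 had a pileup of 12 and a fold enrichment of 8.23, and the coding gene ENSG00000284952 had 20 and 10.1. The other 10 had no HSF1 promoter peak. Among them FICD encodes the enzyme that modifies BiP, and FRG2, FRG2B and FRG2C are related copies, so their mapping is uncertain. Since paired genes share a promoter, the 11 genes with both an element and a peak rest on fewer separate regions than genes.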
